A study of Homo sapiens with 2 samples.

Results

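The genes of epithelial to mesenchymal transition (EMT) were compared between WT and MEIS2-/- cells derived from H1, a widely used human embryonic stem cell line, at day 4 of hematopoietic differentiation. The 10 genes were chosen by their known roles, with earlier results of these data known. They were CDH1 and EPCAM for the epithelial state, CDH2 and VIM for the mesenchymal state, and the repressor genes SNAI1, SNAI2, TWIST1, TWIST2, ZEB1 and ZEB2. All 10 were found by their NCBI Gene numbers among the 17397 genes listed, and all 10 passed the filter of 1 FPKM in at least 1 library.

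EMT is the change by which cells of a sheet, joined by cadherin junctions, loosen these junctions and become motile. Mesoderm forms in this way from the epiblast, which embryonic stem cells resemble, and the mesoderm then gives rise to endothelium and blood. The SNAI, TWIST and ZEB proteins are DNA-binding repressors, and CDH1 is the best known gene that they switch off. SNAI and ZEB proteins bind an E-box, a short DNA motif, through zinc fingers, and the TWIST proteins bind E-boxes as basic helix-loop-helix dimers.

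Both groups were grown for 2 days with activin A (50 ng/ml) plus BMP4 (40 ng/ml) and for the next 2 days with bFGF (50 ng/ml) plus VEGF (40 ng/ml). WT cells were H1 with no MEIS2 mutation named in the labels, and MEIS2-/- cells came from H1 treated with a lentivirus that carried Cas9 and a guide against MEIS2, selected with puromycin and grown from single cells. The sources used here do not say which of the homozygous clones was sequenced, or whether the WT cells had carried a control vector. Each genotype had 1 library of unsorted cells, so no value below has a replicate check and no test between the genotypes was made. In such bulk RNA, fewer cells of a type and less RNA per cell cannot be told apart.

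The values were FPKM, fragment counts divided by transcript length and by library size. Their sum was 447542 for WT and 440651 for MEIS2-/- cells, and whole reads could not be recovered from the low values, which leaves the depth unknown. Log2 fold changes are those of MEIS2-/- over WT with 0.1 FPKM added to both values, so the changes of genes with low levels are understated. A gene was counted as higher or lower when this change was at least 2-fold. The median log2 fold change of the 8092 genes with 5 FPKM or above in each library was 0.12, and the values below were not shifted by it. MEIS2 itself stood at 10.85 FPKM in the WT and 3.44 FPKM in the MEIS2-/- library (log2 fold change -1.63). A small edit need not lower the mRNA, so this level is a limited check of the label. HAND1, a mesoderm factor, was at 357.53 FPKM and 265.24 FPKM, while the leukocyte gene PTPRC was at 0.45 FPKM and 0.89 FPKM.

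Of the 10 EMT genes, 2 were at least 2-fold higher in MEIS2-/- cells, 4 were at least 2-fold lower and 4 differed by less than 2-fold. Both epithelial genes were higher. VIM, SNAI1, TWIST2 and ZEB1 were lower. TWIST2 and ZEB1 passed the filter through the WT library alone, so they could enter the comparison only as lower, and among the 8 genes that reached 1 FPKM in both libraries 2 were higher and 2 lower by this measure. Among all 13075 genes compared, 7.84% were at least 2-fold higher and 7.97% at least 2-fold lower. All 6 repressor genes had the smaller value in MEIS2-/- cells, with a median log2 fold change of -1.11 beside a median of 0.12 over all compared genes. This median includes TWIST2 and ZEB1. SNAI1, SNAI2, TWIST1 and ZEB2, which reached 1 FPKM in both libraries, had log2 fold changes of -1.30, -0.78, -0.84 and -0.92, and SNAI1 alone of these passed 2-fold.

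**Figure D1:**
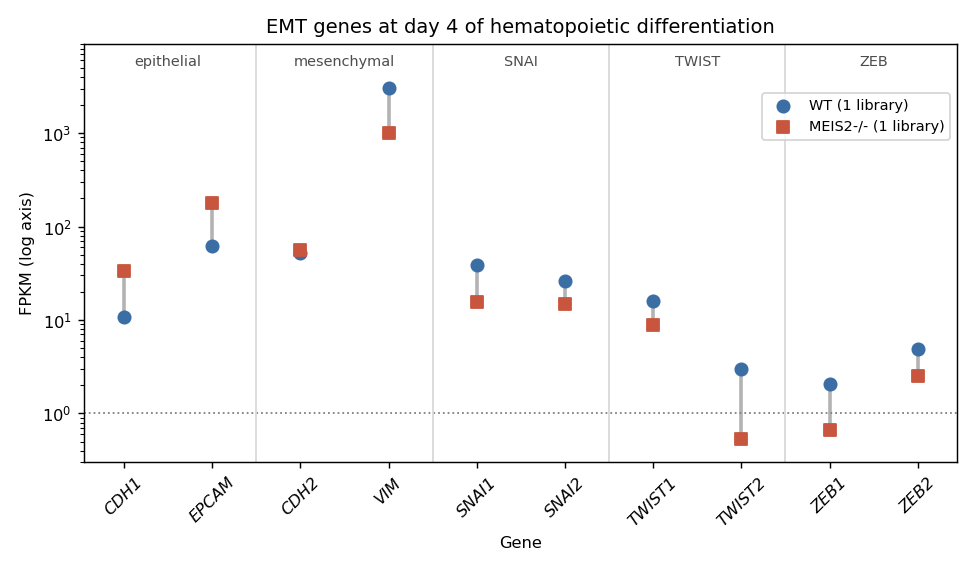
FPKM of the 10 EMT genes (log axis) in the WT library (circles) and the MEIS2-/- library (squares), each point being 1 library, with grey bars joining the 2 values of a gene and a dotted line at 1 FPKM. CDH1 and EPCAM stand higher in MEIS2-/- cells, VIM and the 6 repressor genes lower, and the points of CDH2 nearly coincide.

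CDH1, which encodes E-cadherin, the adhesion protein of epithelial junctions, was at 10.68 FPKM in the WT library and at 33.35 FPKM in the MEIS2-/- library. Its log2 fold change of 1.63, a ratio of 3.12, was exceeded by that of 2.61% of the compared genes. EPCAM encodes a surface protein of epithelial and pluripotent cells. It was at 62.01 FPKM in the WT library and at 178.61 FPKM in the MEIS2-/- library (log2 fold change 1.52, a ratio of 2.88). Ranked by level among the 17397 genes, EPCAM stood at 1219 in WT and 360 in MEIS2-/- cells, and CDH1 at 5863 and 2496. EPCAM had 5.81 times the FPKM of CDH1 in WT cells and 5.36 times in MEIS2-/- cells, so the ratio of the 2 epithelial genes differed little between the libraries.

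The mesenchymal pair did not behave alike. VIM encodes vimentin, the intermediate filament of mesenchymal cells, and CDH2 encodes N-cadherin, the cadherin that replaces E-cadherin in many migrating cells. VIM was at 3048.28 FPKM in the WT library and at 1014.25 FPKM in the MEIS2-/- library, so that MEIS2-/- cells had 33.3% of the WT level and the log2 fold change was -1.59. This was the largest loss of FPKM of any gene listed, and it took VIM from rank 3 to rank 55 by level. VIM alone was 0.681% of the WT sum of FPKM and 0.230% of the MEIS2-/- sum. CDH2 was at 52.48 FPKM in the WT library and at 55.96 FPKM in the MEIS2-/- library. Its log2 fold change of 0.09 became -0.023 when the median log2 ratio was set to 0 and -0.012 with TMM scaling, so no direction is given for it.

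The promoter of VIM is shown because VIM had the largest difference in level. The stretch is the 250 bases before a RefSeq transcription start on the plus strand of GRCh38.p14, at chr10:17227991-17228240, and it overlaps no exon of GENCODE 29. It holds no CACCTG motif on either strand, the E-box described further on.

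VIM: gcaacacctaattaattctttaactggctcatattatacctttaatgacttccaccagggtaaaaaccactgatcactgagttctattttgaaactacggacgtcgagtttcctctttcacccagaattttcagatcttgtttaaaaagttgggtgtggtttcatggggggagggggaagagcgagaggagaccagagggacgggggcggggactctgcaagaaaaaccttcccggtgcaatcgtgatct

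Among the repressors, SNAI1 and SNAI2, which encode the zinc finger proteins Snail and Slug, had the highest levels. SNAI1 was at 38.74 FPKM in the WT library and at 15.65 FPKM in the MEIS2-/- library, with a log2 fold change of -1.30. SNAI2 was at 25.87 FPKM and 14.99 FPKM, a log2 fold change of -0.78, which is under 2-fold. The level of SNAI1 was 1.5 times that of SNAI2 in WT and 1.04 times in MEIS2-/- cells. SNAI3, the related gene outside the set of 10, was low in both, at 2.18 FPKM and 1.35 FPKM.

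TWIST1 and TWIST2 encode closely related helix-loop-helix proteins of mesoderm. TWIST1 was at 16.05 FPKM in the WT library and at 8.95 FPKM in the MEIS2-/- library, and its log2 fold change of -0.84 was under 2-fold. TWIST2 was at 2.99 FPKM and 0.53 FPKM, so that MEIS2-/- cells had 17.7% of the WT level. Its log2 fold change of -2.29 was the most negative of the 10 genes, and it rested on low values, with 1.26% of the compared genes lower still. With a pseudocount of 1 FPKM the log2 fold change of TWIST2 was -1.38.

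ZEB1 and ZEB2, which encode large proteins with zinc fingers at both ends and a homeodomain between them, were the repressor pair with the smallest summed level. ZEB1 was at 2.08 FPKM in the WT library and at 0.67 FPKM in the MEIS2-/- library (log2 fold change -1.5). ZEB2 was at 4.88 FPKM and 2.54 FPKM, with a log2 fold change of -0.92. Both crossed the threshold under some of the settings. A pseudocount of 1 FPKM, which is above the MEIS2-/- level of ZEB1, brought ZEB1 to -0.88. ZEB2 lay near 2-fold, and setting the median log2 ratio to 0 brought it to -1.03.

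The levels of the 6 repressor genes summed to 90.61 FPKM in the WT library and to 43.33 FPKM in the MEIS2-/- library, 47.8% of the WT sum. By family, MEIS2-/- cells had 47.4% of the WT sum for the SNAI pair, 49.8% for the TWIST pair and 46.1% for the ZEB pair. The 3 families thus stood at similar fractions of their WT levels. At the main settings, 1 gene of each family was at least 2-fold lower and the other was not. For the ZEB pair this depended on the processing. With the median log2 ratio set to 0, ZEB1 (-1.60) and ZEB2 (-1.03) both passed 2-fold. With a pseudocount of 1 FPKM neither did, at -0.88 and -0.73. TWIST2 and ZEB1 passed the filter through the WT library alone. SNAI1 gave 42.8% of the WT repressor sum and 36.1% of the MEIS2-/- repressor sum, and the ZEB genes together were a small part of it in both.

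**Figure D2:**
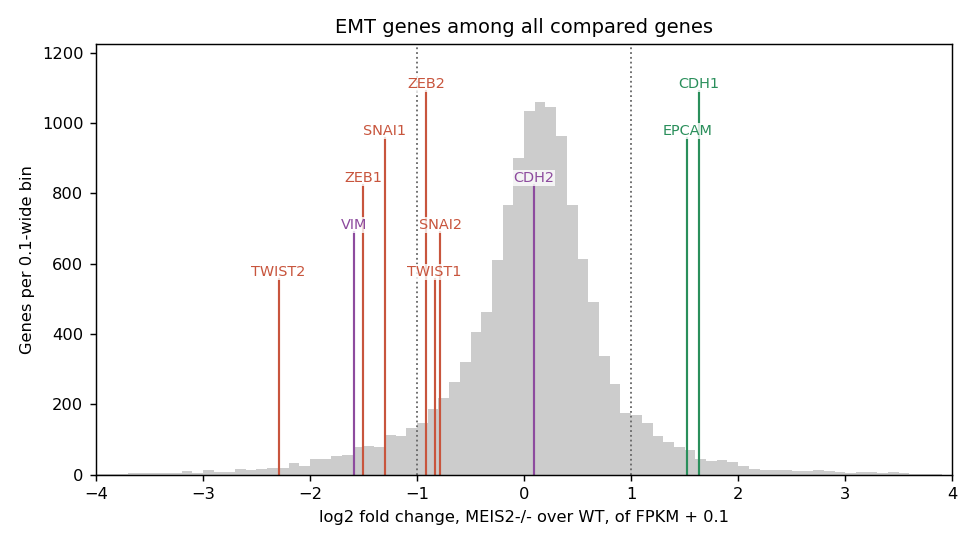
Log2 fold changes of the EMT genes (vertical lines, epithelial green, mesenchymal purple, repressors red, their heights set for legibility) over a histogram of all 13075 compared genes, with dotted lines at 2-fold. The epithelial lines lie beyond the upper dotted line, the lines of VIM, SNAI1, TWIST2 and ZEB1 lie beyond the lower one, and CDH2 stands inside the bulk of genes.

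Ratios of 2 genes within a library do not depend on how the library was scaled. CDH1 over CDH2, the balance of E-cadherin and N-cadherin mRNA, was 0.204 in WT cells and 0.596 in MEIS2-/- cells. The difference was 1.55 on the log2 scale, and the FPKM of CDH2 exceeded that of CDH1 in both libraries. EPCAM over VIM was 0.0203 in WT cells and 0.176 in MEIS2-/- cells, a log2 difference of 3.11. VIM therefore had 49.2 times the FPKM of EPCAM in WT cells and 5.68 times in MEIS2-/- cells. CDH1 over SNAI1 was 0.276 and 2.13, which places CDH1 below its repressor gene in WT cells and above it in MEIS2-/- cells. SNAI1, SNAI2 and TWIST1 each exceeded CDH1 in WT cells, and none of them did in MEIS2-/- cells.

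Other genes of the transition were then described through lists of epithelial, mesenchymal and accessory genes. These lists and the marker lists were also chosen with earlier results of these data known. Counts in these lists and in the marker lists stand beside 7.84% of all compared genes at least 2-fold higher and 7.97% lower. Of the 8 lists, that of factors that keep epithelial identity had the median farthest from 0. Of 15 such genes 12 were compared, and 10 of these were at least 2-fold higher in MEIS2-/- cells and 0 lower, with a median log2 fold change of 1.88. GRHL1, GRHL2 and GRHL3 reached 1 FPKM in the MEIS2-/- library alone and so could enter only as higher. Of the 9 genes that reached it in both libraries 7 were at least 2-fold higher, with a median of 1.67. The grainyhead genes GRHL2 and GRHL3 activate epithelial junction genes. GRHL2 was at 0.90 FPKM in the WT library and at 5.90 FPKM in the MEIS2-/- library (log2 fold change 2.58). GRHL3 was at 0.92 FPKM and 6.45 FPKM, with 2.68. TFAP2C, a factor of surface ectoderm, trophoblast and germ cells, was at 10.41 FPKM and 68.29 FPKM, with 2.70. ESRP1 and ESRP2, which direct epithelial splicing, and OVOL1 and OVOL2, which encode repressors of ZEB1, were also at least 2-fold higher, with log2 fold changes of 1.42, 1.70, 1.67 and 1.05. With the median log2 ratio set to 0, TMM scaling or a pseudocount of 1 FPKM, OVOL2 fell under 2-fold. The count of higher genes in the list was then 9. KLF5 (8.12 FPKM and 8.08 FPKM) and ELF3 (3.89 FPKM and 5.33 FPKM) differed by less than 2-fold.

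Structural genes of epithelia followed with smaller differences. In the list of 40 epithelial junction, polarity and surface genes, 38 were compared, 17 were at least 2-fold higher and 0 were lower, with a median log2 fold change of 0.93. Of the 37 genes that reached 1 FPKM in both libraries, 16 were at least 2-fold higher. With the median log2 ratio set to 0, or with TMM scaling, 13 of the 38 were at least 2-fold higher. A pseudocount of 1 FPKM gave 14. CLDN4, a tight junction claudin, was at 7.95 FPKM in the WT library and at 38.73 FPKM in the MEIS2-/- library (log2 fold change 2.27). ST14, a membrane serine protease of epithelia, was at 6.41 FPKM and 29.81 FPKM, with 2.20, and PKP3, a desmosomal plakophilin, at 9.46 FPKM and 32.83 FPKM, with 1.78. CD24, the gene with the highest mean level, was at 249.24 FPKM and 343.70 FPKM, which is under 2-fold. Of the 38 genes, 37 had the higher value in MEIS2-/- cells, and DSG2 was the exception at 30.72 FPKM and 28.25 FPKM. TJP1, the scaffold protein gene of tight junctions, was at 14.58 FPKM and 16.82 FPKM.

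Mesenchymal genes were mixed. Of 38 compared genes for matrix, filament and surface proteins, 9 had at least 2-fold less in MEIS2-/- cells, 2 had at least 2-fold more, and the median log2 fold change was -0.49. LOX, which crosslinks collagen, was at 13.66 FPKM in the WT library and at 2.04 FPKM in the MEIS2-/- library (log2 fold change -2.68). DES, which encodes the muscle filament desmin, had a log2 fold change of -1.97, from 8.53 FPKM and 2.10 FPKM. COL1A1, a chain of type I collagen, was at 464.09 FPKM and 160.87 FPKM, with -1.53. The 2 higher genes were the syndecan gene SDC2, at 29.42 FPKM and 65.98 FPKM, and CTHRC1, at 4.44 FPKM and 9.60 FPKM. FN1, which encodes fibronectin and had the highest mean level of the list, was at 899.77 FPKM in the WT library and at 1194.54 FPKM in the MEIS2-/- library, under 2-fold and opposite in sign to VIM. With the median log2 ratio set to 0, with TMM scaling or with a pseudocount of 1 FPKM, 1 gene of this list in place of 2 was higher.

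Among 13 other transcription factors linked to EMT, 5 were at least 2-fold lower in the MEIS2-/- library and 0 were higher, with a median log2 fold change of -0.65. They were ETS1 and, named after their values were seen, FOXC1, FOXC2, GSC and PRRX1. ETS1, a factor of endothelium and mesoderm, was at 18.64 FPKM and 9.06 FPKM, and the other 4 were under 4 FPKM in both libraries. PRRX1 stood at exactly 2-fold after the pseudocount. GSC and PRRX1 reached 1 FPKM in the WT library alone, and of the other 11 genes 3 were at least 2-fold lower, with a median of -0.25. With a pseudocount of 1 FPKM, 0 of the 13 genes were lower by this threshold. TCF3, which encodes the E proteins that partner TWIST, was at 96.73 FPKM and 106.36 FPKM.

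The cofactors were measured at similar levels in both libraries. Of 16 corepressors and enzymes that SNAI, TWIST or ZEB proteins recruit, 1 (6.25%) was at least 2-fold lower and 0 were higher. That gene was LOXL2, an oxidase related to LOX, at 102.73 FPKM in the WT library and at 48.11 FPKM in the MEIS2-/- library. CTBP1, which encodes the corepressor bound by ZEB proteins, was at 104.23 FPKM and 107.20 FPKM. None of 12 compared genes for enzymes that modify or degrade SNAI and TWIST proteins passed 2-fold, CSNK1A1 being the highest at 67.94 FPKM and 61.81 FPKM. None of 9 compared catenins and cadherin partners passed it either, JUP, which encodes plakoglobin, being the highest at 161.63 FPKM and 205.85 FPKM. Beside shares of 7.97% lower and 7.84% higher among all compared genes, counts from lists this short do not set these genes apart. The levels of these mRNAs do not measure the amount or stability of the SNAI and TWIST proteins.

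CDH1 and CDH2 were also set beside other cadherins. Of 10 compared, CDH4 was at least 2-fold higher and CDH13, CDH5 and CDH22 were at least 2-fold lower, with a median log2 fold change of -0.83. CDH10 and CDH22 reached 1 FPKM in the WT library alone, and the median of the other 8 was -0.35. CDH5, the endothelial cadherin, was at 15.20 FPKM in the WT library and at 5.02 FPKM in the MEIS2-/- library (log2 fold change -1.58). CDH13, which encodes a cadherin without a cytoplasmic tail, was at 6.96 FPKM and 2.00 FPKM, with -1.75, and CDH22, named after its value was seen and over 1 FPKM in the WT library alone, at 1.04 FPKM and 0.09 FPKM. CDH4, which encodes R-cadherin, was at 2.62 FPKM and 8.81 FPKM, with 1.71. CDH3, which encodes P-cadherin, was at 30.90 FPKM and 59.50 FPKM, a log2 fold change of 0.94, and it exceeded CDH1 in both libraries. CDH3 over CDH2 was 0.589 in WT and 1.06 in MEIS2-/- cells.

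The E-box of SNAI and ZEB proteins was searched for in RefSeq promoter windows of GRCh38.p14, a search chosen after the values were seen. The motif was CACCTG on either strand, which is 1 form of the general E-box CANNTG, in the 250 bases before each annotated start. It was found in 6143 of 35116 windows (17.5%) over all genes in the table. Of the 40 epithelial junction, polarity and surface genes, 27 had windows, and 21 of their 45 windows (46.7%) held the motif. In the mesenchymal list 4 of 37 windows (10.8%) held it, and in that of epithelial factors 2 of 13 (15.4%). The list of epithelial genes was written by hand and includes genes known as targets of these repressors, so the share describes this list.

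At the main settings the motif was about as frequent in this list, by gene, among the higher genes as among the others. It was in at least 1 window of 8 of the 12 genes that were at least 2-fold higher and had a window (66.7%), and of 9 of the 13 such genes under 2-fold (69.2%). By window, the counts were 11 of 19 (57.9%) and 10 of 24 (41.7%), and windows of 1 gene can overlap. Of the EMT genes, CDH2, VIM, TWIST2, ZEB1 and ZEB2 had windows, and CDH1, EPCAM, SNAI1, SNAI2 and TWIST1 had none in the table. The motif was in 2 of these 12 windows, both of ZEB1.

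**Figure D3:**
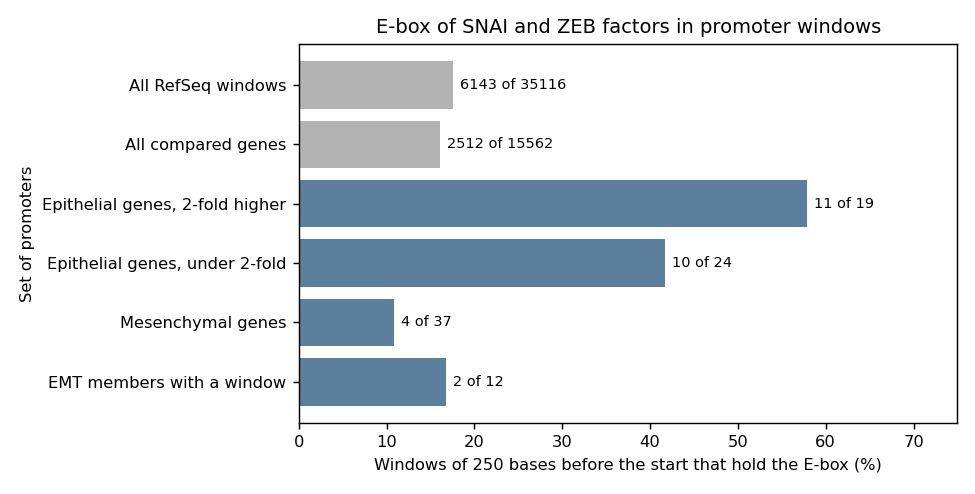
Share of promoter windows that hold the CACCTG E-box on either strand, in percent, for 6 sets of genes, with the counts of windows printed at the bars. The 2 epithelial sets reach 57.9% and 41.7%, above the 17.5% of all windows, and the mesenchymal list reaches 10.8%.

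Of the epithelial genes that were at least 2-fold higher at the main settings and hold the motif, only some are shown, to mark its place. The windows below are those in which the motif lay before any annotated exon of the window, in a stretch long enough to print. Each begins 250 bases before a RefSeq start, is read in the direction of transcription and ends where a GENCODE 29 exon or the start is reached, and capitals mark the motif. DSP, which encodes the desmosomal protein desmoplakin, was at 24.75 FPKM in the WT library and at 51.19 FPKM in the MEIS2-/- library, and its stretch is chr6:7541421-7541574 on the plus strand. DSC2, a desmosomal cadherin gene, was at 7.34 FPKM and 17.19 FPKM, and its stretch is chr18:31102523-31102671 on the minus strand. AP1M2, which encodes an adaptor for sorting to the basolateral membrane, was at 16.33 FPKM and 49.29 FPKM, and its stretch is chr19:10587316-10587562 on the minus strand. PROM1, which encodes the membrane protein CD133, was at 10.54 FPKM and 24.53 FPKM, and the stretch lies before 1 of its several starts, at chr4:16076119-16076368 on the minus strand. The other PROM1 starts lie upstream of it, so this stretch is inside the gene as read from them. Windows of those starts hold the motif 103 and 163 bases before the start and are not printed.
DSP: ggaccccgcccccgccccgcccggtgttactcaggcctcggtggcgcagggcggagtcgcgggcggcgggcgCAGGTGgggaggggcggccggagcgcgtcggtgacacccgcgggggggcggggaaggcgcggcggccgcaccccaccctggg
DSC2: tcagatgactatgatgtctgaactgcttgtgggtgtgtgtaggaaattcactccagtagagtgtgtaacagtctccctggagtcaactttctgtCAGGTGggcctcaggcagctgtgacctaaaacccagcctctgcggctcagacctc
AP1M2: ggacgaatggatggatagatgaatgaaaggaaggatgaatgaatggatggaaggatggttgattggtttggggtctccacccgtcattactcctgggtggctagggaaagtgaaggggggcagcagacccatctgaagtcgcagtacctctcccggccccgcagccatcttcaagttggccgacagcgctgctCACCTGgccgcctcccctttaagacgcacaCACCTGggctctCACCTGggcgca
PROM1: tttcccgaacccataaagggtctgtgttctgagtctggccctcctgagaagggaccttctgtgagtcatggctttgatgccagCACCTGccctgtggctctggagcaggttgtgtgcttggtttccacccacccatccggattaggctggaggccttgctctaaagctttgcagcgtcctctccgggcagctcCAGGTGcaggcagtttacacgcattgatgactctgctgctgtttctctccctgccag

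Markers of other cell types moved with the EMT genes, and their part in the differences was not tested. Pluripotent cells, visceral endoderm, amnion and germ cells are all epithelial or express CDH1 and EPCAM. Of 14 visceral endoderm markers, 11 were at least 2-fold higher in MEIS2-/- cells and 0 lower, and their FPKM summed to 499.45 in WT and 1138.29 in MEIS2-/- cells. Of the 11, 6 reached 1 FPKM in the MEIS2-/- library alone, and of the 8 markers that reached it in both libraries 5 were at least 2-fold higher. APOA1 was the highest of the 14, at 401.38 FPKM and 879.13 FPKM. Of 8 compared amnion and trophectoderm markers, 6 were at least 2-fold higher. VTCN1, KRT7 and XAGE2 reached 1 FPKM in the MEIS2-/- library alone, and of the 5 that reached it in both libraries 3 were at least 2-fold higher. The 12 markers listed summed to 423.40 FPKM and 391.85 FPKM, with HAND1 as the larger part of both sums, and 3 of them were at 0 in WT cells and 1 in MEIS2-/- cells. Of 9 germ cell markers 7 were at least 2-fold higher, with sums of 143.23 FPKM and 485.65 FPKM and PDPN the highest at 42.37 FPKM and 159.35 FPKM. TFAP2C belongs both to these markers and to the epithelial factors.

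Among 13 compared markers of undifferentiated cells, 5 were at least 2-fold higher and 2, GDF3 and TERT, at least 2-fold lower. The median log2 fold change was 0.33, and 5 of the 13 had the lower value in MEIS2-/- cells. POU5F1 was at 285.65 FPKM in the WT library and at 1454.14 FPKM in the MEIS2-/- library. NANOG was at 17.13 FPKM and 70.78 FPKM and SOX2 was near 0 in both, at 0.09 FPKM and 0.15 FPKM. The markers of this list summed to 700.65 FPKM and 1996.49 FPKM, and without POU5F1 the other 14 summed to 415 FPKM and 542.35 FPKM. GDF3 was at 5.42 FPKM and 0.87 FPKM, so it reached 1 FPKM in the WT library alone, TERT at 2.36 FPKM and 1.07 FPKM, and DNMT3B, under 2-fold, at 76.91 FPKM and 45.35 FPKM.

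Endothelial and mesodermal cells are known to express VIM and other mesenchymal genes. Of 12 compared endothelial markers, 8 were at least 2-fold lower in the MEIS2-/- library and 0 higher, and the 14 listed summed to 556.10 FPKM and 143.80 FPKM. EGFL7, the highest, was at 285.86 FPKM and 69.96 FPKM. Of 11 compared mesoderm markers, 4 were at least 2-fold lower (1 of them, MESP2, over 1 FPKM in the WT library alone) and 2 at least 2-fold higher, with sums of 960.20 FPKM and 508.39 FPKM. KDR, at 323.77 FPKM in WT and 61.98 FPKM in MEIS2-/- cells, made the larger part of the difference between these sums. The 2 higher genes were TBXT, at 2.44 FPKM and 10.74 FPKM, and MIXL1, at 2.33 FPKM and 6.47 FPKM.

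Reads that fit more than 1 gene bear on VIM and ZEB2. Of the distinct 50-base words in the annotated coding transcripts of VIM, 33.1% also occur in transcripts of other genes on either strand, and 24.6% are the complement of words in VIM-AS1, an antisense gene. For ZEB2 the share with ZEB2-AS1 was 6.45%. Whether strand was used in counting is not given in the sources used here, so reads of these genes and their antisense partners cannot be told apart. CDH1, EPCAM and CDH2 shared at most 2.27% of their words with another gene. No word of SNAI1, SNAI2, TWIST1, TWIST2 or ZEB1 was found in a transcript of another gene.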

How the data were processed

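RNA-Seq of 1 WT and 1 MEIS2-/- library was used. The authors deposited 1 FPKM value per gene and library, rounded to 2 decimals. The labels describe Trizol extraction and a TruSeq RNA kit, and their processing notes name BWA, Bowtie, RSEM and hg19 without roles or versions. Gene numbers were matched to symbols for 17365 of 17397 genes with RefSeq names. No coordinates of hg19 were used. Promoter windows came from RefSeq on GRCh38.p14, and exons and transcripts from GENCODE 29.

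The comparison covered the 13075 genes that reached 1 FPKM in either library, and exact ties counted as 2-fold. With 1 library per genotype, no test was made. The 10 genes and the lists (8 of pathway genes and 9 of cell type markers) were chosen with earlier results of these data known. Named genes are all members, SNAI3, MEIS2, POU5F1, NANOG and SOX2, and in each pathway list the 3 largest rises and 3 largest falls past 2-fold among genes at 5 FPKM or more. The gene with the highest mean of each list is named as well, except for 1 that is not reported here. Further genes were named after their values were seen. Alternatives were pseudocounts of 1 and 0.01 FPKM, 2 scalings (median log2 ratio of 0, and TMM with 30% of log ratios and 5% of means trimmed per side), other filters and other thresholds. The computation was tested on planted data. Python 3.11.15, numpy 2.4.6, pandas 2.3.3 and matplotlib 3.10.9 were used.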

Additional observations from a re-analysis of the deposited data

How the results depend on the processing

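Of 271 alternative values for 41 results under 8 settings, 234 kept their sign and, as counts or unlogged folds, moved by at most 1.5 times without crossing 2-fold, 31 moved further or crossed it, and 6 changed sign. This limit describes the choices of processing on the same 2 libraries only. Without replicates or depth, no spread between samples can be given. With a pseudocount of 1 FPKM the median log2 fold change of the 6 repressor genes was -0.83, and 0 other EMT factors were lower. With the median log2 ratio set to 0, the log2 fold change of CDH2 was -0.023, the median of the corepressor list -0.0063 and that of the turnover enzymes -0.037. With TMM scaling CDH2 was at -0.012 and the turnover enzymes at -0.026. Without a filter the median of the other cadherins was 0.11. A filter of 5 FPKM removed TWIST2, ZEB1 and ZEB2, and then 2 members and 1 other EMT factor were lower the repressor median was -0.84 and the median of the other EMT factors -0.064. At 1.5-fold, 7 members and 16 mesenchymal genes were lower. At 4-fold, 0 members were higher and 1 was lower, and the counts were 6 epithelial factors and 3 epithelial junction genes higher, 1 mesenchymal gene and 0 other EMT factors lower. CDH1, EPCAM, VIM and SNAI1 kept their calls under every scaling, pseudocount and filter tried. The values at 1.5-fold and 4-fold follow from the thresholds, and the cause of the other changes was not tested. Depth is unknown, so the counting error of ZEB1 and TWIST2 cannot be given. No paired analysis was possible because each genotype has 1 library.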

Other observations

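Further marker lists moved in different directions. Of 7 definitive endoderm markers, in MEIS2-/- cells 1 was higher by at least 2-fold and 2, HHEX and LHX1, were lower by at least 2-fold. By sign, 5 had the lower value and 2 the higher, with a median log2 fold change of -0.43. HHEX was at 18.74 FPKM in WT and 4.17 FPKM in MEIS2-/- cells, and LHX1 at 20.61 FPKM and 5.93 FPKM. SOX17, the marker with the highest level, went the other way, at 141.01 FPKM in WT and 264.03 FPKM in MEIS2-/- cells. Of 6 compared hematopoietic markers, 3 were at least 2-fold lower and 0 higher (1 of the 3 reached 1 FPKM in the WT library alone), TAL1 being the highest at 27.37 FPKM and 7.71 FPKM.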
